A study of Mus musculus with 6 samples.

Results

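The genes described here are 10 genes of haem breakdown, iron storage and antioxidant defence, chosen by name from a table of 36557 gene rows: Hmox1, Blvrb, Fth1, Ftl1, Gclc, Gclm, Txnrd1, Srxn1, Prdx1 and Nqo1. Each had 1 row, and all 10 were among the 17392 genes with enough counts to be tested. RNA was sequenced from the aortic arch and thoracic aorta of mice fed a high-fat diet (HFD) for 4 weeks and flushed with PBS before dissection. The 3 control libraries were labelled Apoe-/- control and the 3 knockout libraries Apoe-/- MiR26b-/-, so both groups lacked the gene for apolipoprotein E, a state in which atherosclerotic plaque forms on such a diet. The labels do not name separate animals, and the p-values therefore measure the spread between libraries, which may be technical.

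The transcription factor NRF2 (gene Nfe2l2) is held at a low level by KEAP1, and when oxidants or electrophiles modify KEAP1 it enters the nucleus and binds antioxidant response elements together with small MAF proteins. BACH1 occupies the same elements and leaves them when haem binds it, which makes Hmox1 a target of haem as well as of oxidants. Haem oxygenase 1 opens the haem ring and releases iron, carbon monoxide and biliverdin. Biliverdin reductase A (gene Blvra) makes bilirubin from this biliverdin, and ferritin stores the iron. In plaque, macrophages that clear red cells and oxidised lipoproteins are a known site of this pathway.

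Ferritin is also controlled after transcription. When iron is low, iron regulatory proteins bind a hairpin, the iron-responsive element, near the start of ferritin RNA and block its translation, a step that RNA counts do not measure. The pattern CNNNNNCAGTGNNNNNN, in which the 5 bases after the first C pair with the last 5 (G with T allowed), was searched on the transcript strand of annotated UTRs (GENCODE release M21, GRCm38). It was found in the 5′ UTR of 2 of the 10 genes, Fth1 and Ftl1, and of 31 of 20572 genes in all (0.151%). The iron exporter gene Slc40a1 also held 1 match in its 5′ UTR, and the transferrin receptor gene Tfrc held matches in its 3′ UTR, where such hairpins are known to stabilise the RNA. The 30 bases around each match are shown because both ferritin chains hold the hairpin. Capitals mark the bulged C and the 6-base loop. Fth1 lies at chr19:9982730-9982759 on the plus strand, Ftl1 at chr7:45459780-45459809 and Slc40a1 at chr1:45925466-45925495, both on the minus strand.
Fth1: gtttcctgCttcaaCAGTGCttgaacggaa
Ftl1: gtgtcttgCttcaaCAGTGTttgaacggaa
Slc40a1: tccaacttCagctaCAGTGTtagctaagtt

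Promoter sequence from RefSeq (GRCm38.p6, 250 bases before to 50 after each start) matched 8 of the 10 genes by symbol; Hmox1 and Gclc had no entry. The core of the antioxidant response element, TGACNNNGC, was searched on both strands. It occurred in 4 of the 12 promoters of these genes, those of Gclm, Prdx1, Srxn1 and Txnrd1, and in 12.4% of all 32851 promoters. TGACTCAGC, which is 1 form of that core with its N bases fixed, occurred in Prdx1 and in 0.454% of all promoters. The matches are descriptions of these windows and are not shown to be binding sites. They are printed on the gene's strand with the match in capitals, all reading the motif on the opposite strand. That of Prdx1 begins 133 bases before the start (chr4:116685446-116685494), that of Gclm 134 bases before (chr3:122245403-122245451) and that of Txnrd1 92 bases before 1 of its 3 starts (chr10:82859094-82859142).
Prdx1: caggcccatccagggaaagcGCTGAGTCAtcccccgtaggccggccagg
Gclm: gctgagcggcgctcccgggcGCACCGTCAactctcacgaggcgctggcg
Txnrd1: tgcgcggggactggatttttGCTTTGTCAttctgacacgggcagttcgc

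The microRNA that was deleted is shown with its seed, bases 2 to 8, in capitals, because 2 of the 10 genes carry its site. It lies at chr1:74394324-74394344 on the plus strand, in an intron of Ctdsp1. Its 8-base site TACTTGAA occurs once in the longest 3′ UTR of Gclm and once in that of Txnrd1. The other 8 genes have no site of 7 or 8 bases, while 18.3% of 21045 genes have 1 or more. Loss of the microRNA itself was not checked, as microRNA genes had 0 rows among the counts. The sites are in capitals below, at chr3:122269156-122269183 and chr10:82896714-82896741.
mmu-miR-26b-5p: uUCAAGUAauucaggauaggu
Gclm: aaatttgaacTACTTGAAtttaaacagt
Txnrd1: ttggctaatcTACTTGAActgcatcgca

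Ferritin light chain and biliverdin reductase B RNA rose in the knockout aortas, Ftl1 by 2.96-fold and Blvrb by 1.46-fold. Hmox1 had the largest difference of the 10, 3.88-fold, but its knockout libraries spread so widely that it did not pass. Genes of glutathione synthesis and the quinone reductase gene Nqo1 had differences between -0.19 and 0.01 on the log2 scale, none called. In the edgeR quasi-likelihood fit, adjusted by Benjamini-Hochberg over all tested genes, 2 of the 10 genes were higher and 0 were lower at an adjusted p under 0.05, where 6.50% of all tested genes were called higher and 3.84% lower (10.3% together). At an unadjusted p under 0.05, 6 of the 10 were higher and 0 lower, against 17.5% and 13.2% of all tested genes. The groups did not overlap for 5 of the 10, each higher in the knockouts, against 18.9% of all tested genes higher and 17.2% lower without overlap. The median log2 difference was 0.38 over the 10 genes and -0.0033 over all tested genes. The 10 genes were chosen with earlier results of these data known. These comparisons with all tested genes are therefore descriptive and do not test the set.

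**Figure D1:**
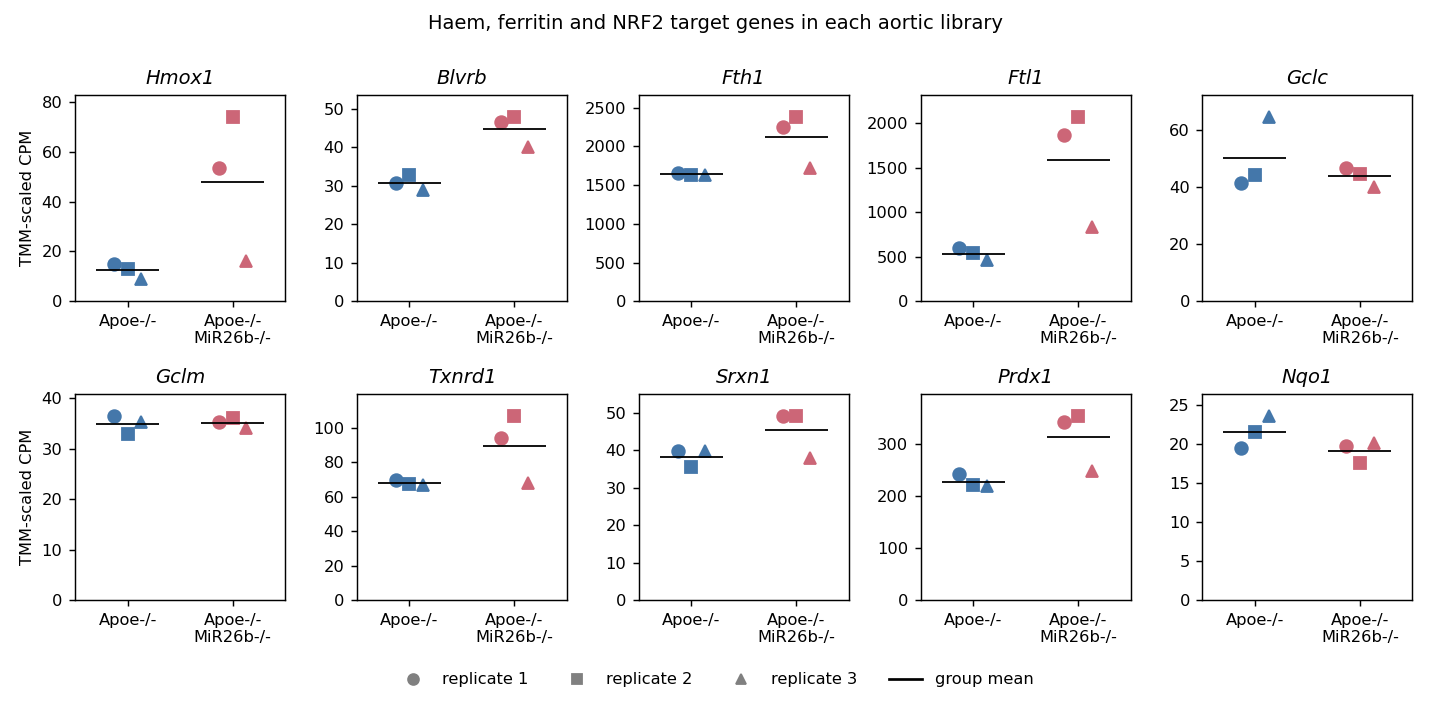
Level of each gene in every library as CPM, counts scaled to the TMM-adjusted library size (vertical axis, from 0), with Apoe-/- controls in blue, Apoe-/- MiR26b-/- knockouts in red, replicate numbers as symbols and bars at the group means. Knockout replicates 1 and 2 stand above every control for 7 genes, and knockout replicate 3 is the lowest knockout for 9 of the 10. The shares of all tested genes with these orders were not computed, so the counts cannot be called particular to the 10 genes.

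The 6 libraries held between 51634139 and 54817547 deposited counts. Knockout replicate 3 stood apart from the other knockouts on the first principal component of all tested genes (70.4% of variance), at -1.04, with the controls between -34.56 and -22.32 and the other knockouts at 39.33 and 45.98. Results are therefore given with and without it. No library was missing the muscle of the vessel wall: the 10 smooth muscle markers were tested, and their deposited TPM values, a level scaled for transcript length, summed to between 17999 and 30258 per library. In bulk tissue, fewer cells of a type and less RNA per cell cannot be told apart.

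Hmox1 (ENSMUSG00000005413, chromosome 8, 75093621 to 75100589, plus strand, 5 exons), the inducible haem oxygenase, had 15.1, 12.8 and 9.05 CPM in control replicates 1, 2 and 3 and 53.5, 73.9 and 16.3 CPM in the knockouts. Knockout replicates 1 and 2 were several times the highest control, while knockout replicate 3 was just above it, so the groups did not overlap. The log2 difference was 1.96 (SE 0.52, edgeR adjusted p = 0.0605). DESeq2 called it (adjusted p = 0.0117), as did edgeR without knockout replicate 3, at 5.16-fold with an adjusted p of 0.00108. When any other library was left out, the edgeR adjusted p was between 0.141 and 0.186, and limma-voom gave 0.139. Hmox1 was called in 5 of the 25 alternatives run.

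Blvrb (ENSMUSG00000040466, chromosome 7, 27447978 to 27466144, plus strand), which encodes an NADPH-dependent flavin and biliverdin reductase abundant in red cells, rose with little spread among libraries. Its levels were 30.8, 32.8 and 28.8 CPM in the controls and 46.5, 47.9 and 40.2 CPM in the knockouts. All 3 knockouts stood well above all 3 controls, knockout replicate 3 included. This came to a log2 difference of 0.54 (SE 0.09, edgeR adjusted p = 0.0266), and the fold lay between 1.41 and 1.53 with any 1 library left out, though the adjusted p then exceeded 0.05 in 5 of the 6 cases, up to 0.123. The erythroid list, which includes the globins, had 0 of 9 tested markers called in either direction, with summed TPM between 4819 and 13071 in controls and between 2883 and 7929 in knockouts, and their part in the Blvrb difference was not tested.

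Ftl1 (ENSMUSG00000050708, chromosome 7, 45457944 to 45459884, minus strand), the ferritin light chain that aids iron core formation, had 600.5, 541 and 465 CPM in the controls. In the knockouts it had 1866, 2067 and 829 CPM. Every knockout exceeded every control, with knockout replicate 3 far nearer to the controls than to the other knockouts. Ftl1 thus differed by 1.57 on the log2 scale (SE 0.33, edgeR adjusted p = 0.0384). With knockout replicate 3 left out the fold was 3.67 (adjusted p = 0.000409), and with any other library left out the log2 difference was between 1.33 and 1.66 with an adjusted p of at least 0.101. DESeq2 also called it (adjusted p = 2.99e-06), whereas limma-voom did not (0.0513).

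Fth1 (ENSMUSG00000024661, chromosome 19, 9980598 to 9985098, plus strand), the heavy chain that oxidises iron as it enters the shell, had 1656, 1626 and 1633 CPM in the controls and 2251, 2379 and 1725 CPM in the knockouts. The controls were nearly equal, and all knockouts stood above them. For Fth1 the log2 difference came to 0.37 (SE 0.13), with an adjusted p of 0.104 by edgeR and 0.0245 by DESeq2. Without knockout replicate 3 edgeR gave 1.41-fold and an adjusted p of 0.00187. When any other library was left out, the edgeR adjusted p was between 0.213 and 0.289. Fth1 was called in 3 of the 26 alternatives run.

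Per transcript length, Fth1 was the more abundant chain in every library. Its deposited TPM were 3687, 3575 and 3604 in controls and 5062, 5295 and 3841 in knockouts, which placed it at rank 25 by mean TPM among tested genes in controls and at rank 19 in knockouts. Those of Ftl1 were 1266, 1126 and 973, and then 3990, 4372 and 1752, which moved it from rank 98 to rank 26. The ratio of light to heavy chain RNA was 0.34, 0.31 and 0.27 in controls and 0.79, 0.83 and 0.46 in knockouts. The ratio was thus higher in every knockout than in any control, with means of 0.309 ± 0.0371 and 0.690 ± 0.203 (SD, n = 3, exact two-sided permutation test, p = 0.1, the smallest that 3 against 3 libraries allow; 0.2 after adjustment over 4 ratios computed).

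**Figure D2:**
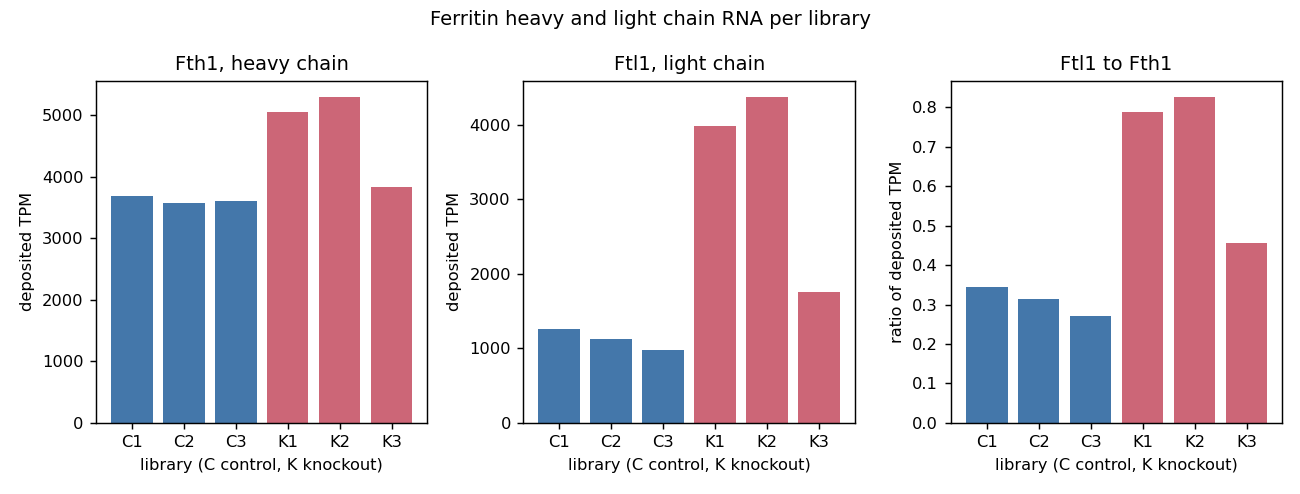
Deposited TPM of the ferritin heavy chain gene Fth1 and light chain gene Ftl1, and the ratio of the 2, as 1 bar per library (C, Apoe-/- control; K, Apoe-/- MiR26b-/- knockout; numbers are replicates; axes start at 0). The ratio stands between 0.27 and 0.34 in controls and between 0.46 and 0.83 in knockouts.

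Ferritin genes have many processed copies in the genome, and reads of such copies can be split. Of the 31-base words in Ftl1 transcripts, 57.7% also occur in transcripts of 30 other genes, of which 18 had a row. Those rows together held 0.192% of the counts given to Ftl1, and reads of the copies without a row were not measured. The largest such row, Ftl1-ps1, had 58.4, 58.2 and 59.8 counts in controls and 164, 153 and 72.1 in knockouts, with knockout replicate 3 the lowest knockout as for Ftl1. Fth-ps2 had between 17.2 and 24.9 counts in any library, with no call. For Fth1 the shared words were 3.24%, and adding the named copies to their parent genes left both ferritin values on the same side of the threshold.

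The thioredoxin and peroxiredoxin genes were higher in knockout replicates 1 and 2 and near the controls in replicate 3. Prdx1 (ENSMUSG00000028691, chromosome 4, 116685544 to 116700822), a peroxidase that reduces hydrogen peroxide, had 242, 221 and 219 CPM in controls and 341, 352 and 247 CPM in knockouts. The groups were apart by a narrow margin, between control replicate 1 and knockout replicate 3. Prdx1 had a log2 difference of 0.46 (SE 0.14), and its adjusted p was 0.0766 by edgeR and 0.0117 by DESeq2. Of its 31-base words, 15.2% are shared with other genes, so part of its reads may be split. For Gclm the share is 5.61%. Unlike for Ftl1, the rows of the sharing genes held far more counts, 4090% of those given to Prdx1 and 85500% of those given to Gclm. These are the whole counts of those genes, and the counts at shared words were not measured.

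Txnrd1 (ENSMUSG00000020250, chromosome 10, 82833951 to 82897712), the cytosolic reductase that recharges thioredoxin, had 69.8, 67.2 and 67.0 CPM in controls and 94.0, 107 and 67.7 CPM in knockouts. Knockout replicate 3 lay inside the control range. Between groups the log2 difference was 0.40 (SE 0.16, edgeR adjusted p = 0.145). Txnrd1 is 1 of the 2 genes with a miR-26 site. Eid3, a gene on the same strand, overlaps it. Of the 7173 31-base words in Txnrd1 transcripts, 0 occur on the same strand in transcripts of genes outside the 10.

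Srxn1 (ENSMUSG00000032802, chromosome 2, 152105516 to 152111376), which encodes sulfiredoxin, the enzyme that repairs overoxidised peroxiredoxins, had 39.7, 35.5 and 39.7 CPM in controls and 49.0, 49.0 and 37.8 CPM in knockouts. Here too the third knockout lay among the controls. The log2 difference was 0.24 (SE 0.11, edgeR adjusted p = 0.202). Its ratio to Prdx1 in deposited TPM was between 0.075 and 0.084 in controls and between 0.069 and 0.073 in knockouts (exact permutation p = 0.1, 0.2 adjusted over the 4 ratios).

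Neither glutathione synthesis gene passed the test. Gclc (ENSMUSG00000032350, chromosome 9, 77754535 to 77794485), the catalytic subunit of glutamate-cysteine ligase, had 41.3, 44.4 and 64.6 CPM in controls and 46.9, 44.8 and 40.1 CPM in knockouts. Control replicate 3 alone was high, and the other 5 libraries lay close together. The log2 difference was -0.19 (SE 0.17, edgeR adjusted p = 0.499) and turned to 0.04 without that library. Gclm (ENSMUSG00000028124, chromosome 3, 122245557 to 122270732), its modifier subunit and the other gene with a miR-26 site, had 36.4, 32.8 and 35.3 CPM in controls and 35.4, 36.1 and 34.1 CPM in knockouts. The 6 values overlapped fully, at a log2 difference of 0.01 (SE 0.06, edgeR adjusted p = 0.893), whose sign changed without control replicate 2 (-0.03) or knockout replicate 2 (-0.0048). The ratio of modifier to catalytic subunit in deposited TPM was 1.07 ± 0.206 in controls and 1.22 ± 0.0700 in knockouts (SD, n = 3, exact permutation p = 0.5).

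Nqo1 (ENSMUSG00000003849, chromosome 8, 107388225 to 107403206, minus strand), the quinone reductase that is a standard readout of NRF2, had 19.4, 21.5 and 23.5 CPM in controls and 19.7, 17.5 and 20.1 CPM in knockouts. It was the only 1 of the 10 genes with its highest knockout value in replicate 3. The groups overlapped, with a log2 difference of -0.17 (SE 0.09, edgeR adjusted p = 0.269).

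**Figure D3:**
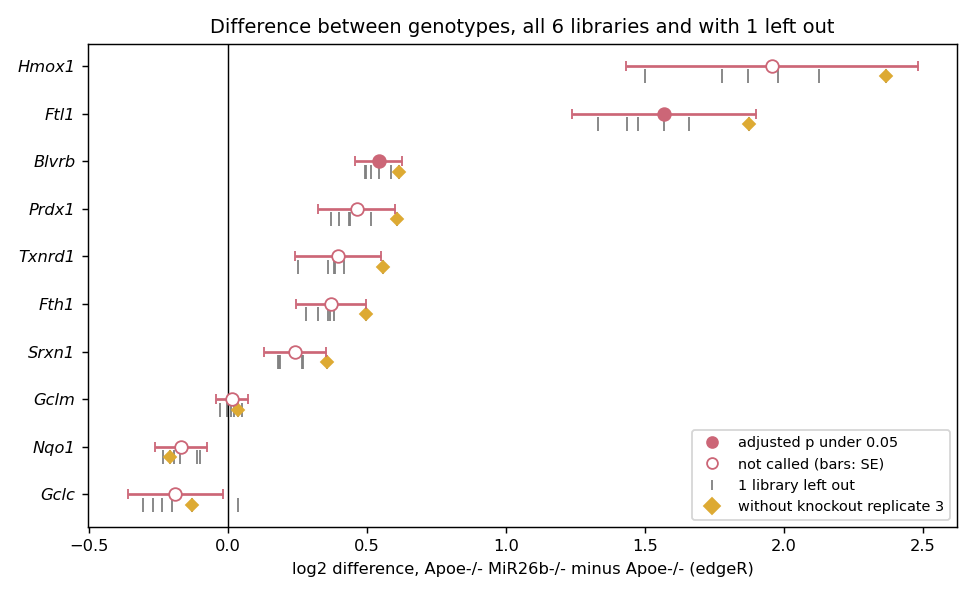
Log2 difference between genotypes for each gene (horizontal axis, knockout minus control, circles with SE bars, filled where the adjusted p is under 0.05), with grey ticks for the fits that leave out 1 library and a diamond for the fit without knockout replicate 3. Ftl1 and Blvrb are filled, and Gclc and Gclm have ticks on both sides of 0.

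Without knockout replicate 3, edgeR called 7 of the 10 genes higher, namely Hmox1, Blvrb, Fth1, Ftl1, Txnrd1, Srxn1 and Prdx1, with adjusted p between 0.000409 and 0.00991. That fit called 17.2% of all its tested genes higher. Knockout replicate 3 was set apart by its place nearest the controls and was the lowest knockout for 9 of the 10 genes. Leaving it out therefore favours calls of higher genes, and the 7 calls are no added support. DESeq2 on all 6 libraries called 5 of the 10 higher, Hmox1, Blvrb, Fth1, Ftl1 and Prdx1, where it called 13.0% of genes with an adjusted p higher. With any other library left out, edgeR called 0 of the 10, with 4 of the 10 higher at a p below 0.05 before adjustment each time, where between 12.5% and 15.6% of all genes were. DESeq2 then called between 2 and 4 of the 10 higher, and between 7.23% and 11.5% of all genes. Scaling by library size alone called 2, again Ftl1 and Blvrb.

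Macrophage markers were high in the knockout libraries in which Hmox1, Ftl1 and Blvrb were high. The order of knockout replicates from high to low was 2, 1 and 3 for all of these. Neutrophil, T cell, fibroblast and erythroid medians and the first principal component of all tested genes shared that order. Endothelial, smooth muscle, fat and B cell medians did not. All 15 listed macrophage markers were called higher and none was at 0. Their summed TPM was between 854 and 1121 in controls and was 5770, 6410 and 2268 in knockout replicates 1, 2 and 3. Their median log2 level over the control mean was 2.09, 2.16 and 1.08 in those knockouts, beside 1.81, 1.96 and 0.64 for Ftl1, 2.10, 2.57 and 0.42 for Hmox1, and 0.59, 0.63 and 0.38 for Blvrb. Gclc, Gclm and Nqo1 did not share this, with values between -0.29 and 0.05 in the same libraries. Neutrophil markers had medians of 1.29, 2.17 and -0.01, with 1 of 8 tested called higher and summed TPM between 10.3 and 32.0 in controls and of 80.8, 138 and 21.2 in the knockouts. T cell markers had medians of 0.48, 0.84 and 0.07, beside -0.63 to 0.46 in controls, with 0 of 10 tested called. B cell markers had -1.20, -0.78 and -1.03, beside -1.04 to 1.72 in controls, also with 0 of 10 called. Fibroblast markers had medians of 0.36, 0.42 and 0.24, with 4 of 10 called higher and 1 lower, and endothelial markers had 0.19, 0.25 and 0.20, with 4 of 10 called higher. Smooth muscle markers went the other way, at -0.59, -0.67 and -0.37, with 6 of 10 called lower. Fat markers, from the tissue around the vessel, stood at -1.97, -1.17 and 0.38 in the knockouts and between -0.91 and 0.73 in controls, with 0 of 10 called. With the fat markers as a covariate neither Ftl1 (1.24, adjusted p = 0.123) nor Blvrb (0.50, 0.0716) passed. The part of any of these cell types in the differences was not tested.

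**Figure D4:**
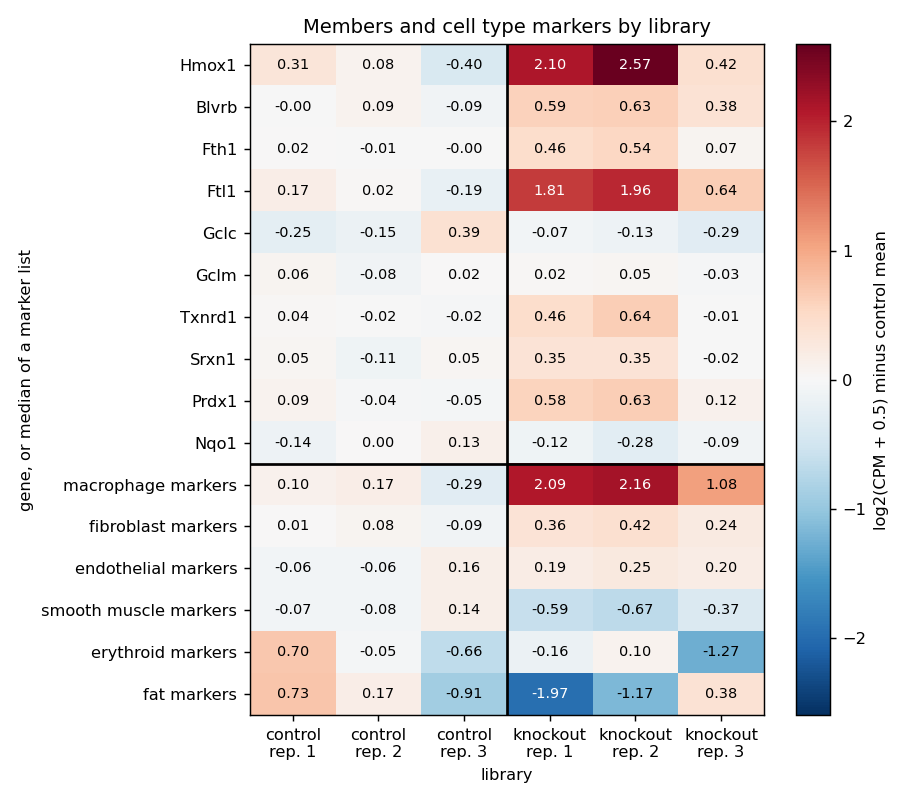
Level in each library as log2(CPM + 0.5) minus the control mean, for the 10 genes (above the line) and for medians of marker lists (below it). The lists shown are those of macrophage, fibroblast, endothelial, smooth muscle, erythroid and fat markers. Knockout replicates 1 and 2 are high for Hmox1, Ftl1 and the macrophage markers, and knockout replicate 3 is lower for each of them.

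The counts in the 5 lists of related genes below are to be read against the 6.50% of all tested genes called higher and the 3.84% called lower. The lists too were chosen with earlier results of these data known. Of 10 genes that control NRF2, 0 were called higher and 1 lower, and the median log2 difference was -0.0065. Nfe2l2 had 96.8, 96.5 and 97.5 CPM in controls and 120, 122 and 103 CPM in knockouts, a log2 difference of 0.24 (SE 0.07) with no overlap, at an adjusted p of 0.0795 by edgeR and 0.0356 by DESeq2. Keap1 had a log2 difference of -0.03 (SE 0.05, adjusted p = 0.647), which was 0.01 with library size alone as the scaling. Bach1 had 0.24 (SE 0.09, adjusted p = 0.141). The gene that passed was Mafk, a small MAF partner of both NRF2 and BACH1, which fell from 90.2 ± 1.69 to 74.3 ± 5.50 CPM (SD, n = 3, edgeR adjusted p = 0.0438). A further list of NRF2 targets had 23 rows for 22 genes, with 0 higher, 1 lower and a median of 0.01. The drug and glutathione conjugate exporter gene Abcc1 was the lower 1, from 168 ± 11.3 to 137 ± 6.83 CPM (edgeR adjusted p = 0.0477).

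Iron transport and storage genes held 5 called higher and 0 lower of 18 tested, with a median log2 difference of 0.38. Slc11a1, an iron and manganese transporter of macrophage phagosomes, had 15.7, 12.8 and 11.1 CPM in controls and 59.4, 70.9 and 26.0 CPM in knockouts, a 3.94-fold rise (edgeR adjusted p = 0.0322). Slc11a1 lies 8248 bases from Mir26b (chromosome 1, 74375195 to 74386062), so genome carried along with the knockout allele and the loss of the microRNA cannot be told apart for this gene. Trf, the iron carrier transferrin, rose 1.48-fold and Hfe, a partner of the transferrin receptor in iron sensing, rose 1.47-fold, with edgeR adjusted p of 0.0325 and 0.0324. The other risers were the ferric reductase gene Steap3 and the ferroxidase gene Cp, at 1.53-fold and 1.45-fold. Slc40a1, the iron exporter ferroportin, had 9.62, 7.30 and 5.91 CPM in controls and 17.1, 29.7 and 11.5 CPM in knockouts, a log2 difference of 1.35 (SE 0.36) with no overlap and an adjusted p of 0.0601 by edgeR and 0.000912 by DESeq2. Tfrc had 0.34 (SE 0.17, edgeR adjusted p = 0.234).

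The list of 18 genes of haem uptake, export and synthesis also held Hmox2 and Blvra, which act in haem breakdown. Of the 18, 1 was called higher and 0 lower (median 0.20). The called gene was Hmox2, the constitutive haem oxygenase, at 45.6, 46.4 and 44.7 CPM in controls and 60.4, 62.8 and 54.0 CPM in knockouts (edgeR adjusted p = 0.0304). Its level was more even among knockouts than that of Hmox1. Blvra, the other biliverdin reductase, had a log2 difference of 0.33 (SE 0.12, adjusted p = 0.127). Cd163, the receptor through which macrophages take up haemoglobin bound to haptoglobin, had 40.1, 45.0 and 33.4 CPM in controls and 29.1, 31.9 and 41.1 CPM in knockouts, with the lowest values in the 2 knockouts whose Hmox1 was highest (log2 difference -0.21, SE 0.16, edgeR adjusted p = 0.403).

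Other antioxidant enzymes had 21 rows for 20 genes, of which 0 were higher and 2 lower (median -0.05). Sod3, the extracellular superoxide dismutase of the vessel wall, fell from 753 ± 48.8 to 586 ± 29.4 CPM and Msra, a methionine sulfoxide reductase, from 33.8 ± 1.86 to 25.1 ± 3.28 CPM (edgeR adjusted p = 0.0373 and 0.0466). Over the 5 lists together, 6 of 90 tested rows were higher and 4 lower, close to the shares of 6.50% and 3.84% among all tested genes. When scaled by library size alone the counts were 9 higher and 0 lower: Mafk, Abcc1, Sod3 and Msra no longer passed, though their values were below 0 in every alternative run. Ftl1, Gclm, Txnrd1, Mafk, Abcc1, Hmox2, Trf, Msra, Nfe2l2 and Keap1 overlap other genes in the annotation, and whether counting used strand is not given in the sources used here, so their values are uncertain to that extent.

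**Figure D5:**
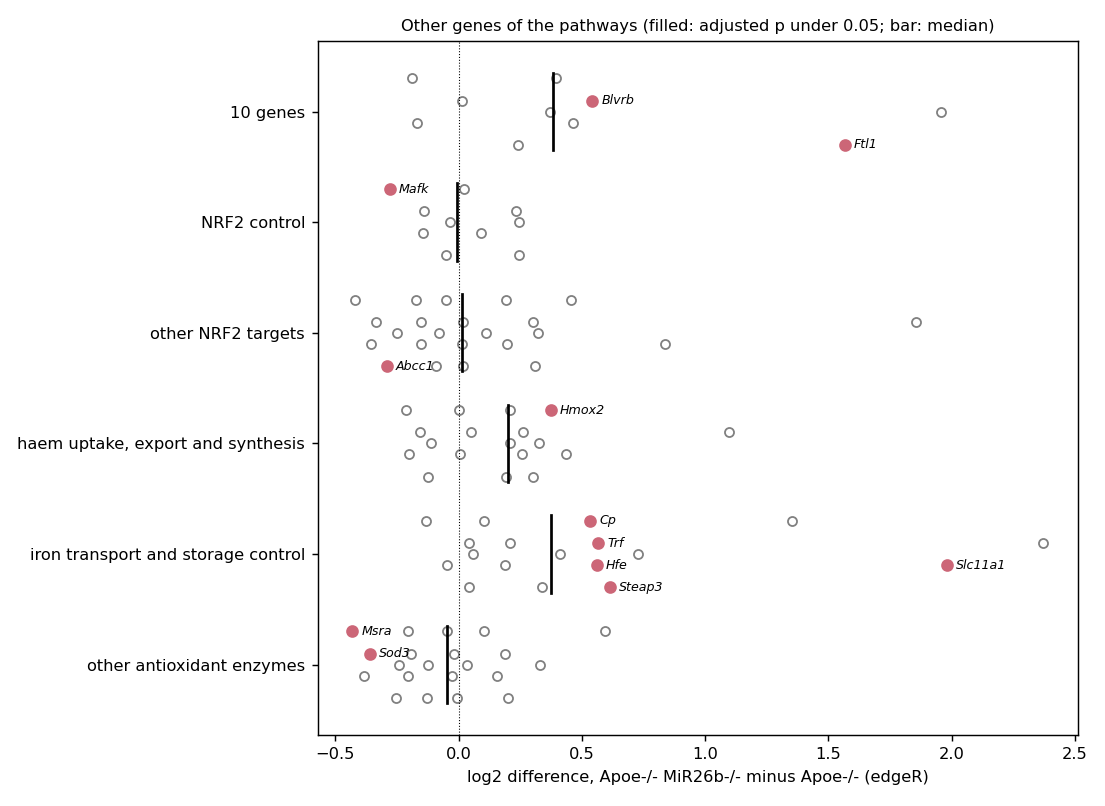
Log2 difference (knockout minus control, edgeR) of each tested gene in the 10-gene set and in 5 lists of related genes, filled and named where the adjusted p is under 0.05, with a bar at each median. The filled points lie above 0 in the iron list and below 0 among other antioxidant enzymes.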

How the data were processed

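A table of counts and a table of TPM, each of 6 libraries, were used, with samples assigned by the column codes that the labels give. The tools named are kallisto 0.46.2, Trim Galore 0.6.5 and FastQC 0.11.8, with GRCm38, per the submitters' processing notes. The deposited estimated counts are not whole; of values under 20, between 66.3% and 67.1% per library are whole multiples (within 0.02) of a constant between 0.90044 and 1.06848, and the step behind this is not given in the sources used here. The deposited TPM were treated as a signal because library sums ran from 955527 to 1034723.

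Estimated counts were rounded, filtered with filterByExpr (minimum count 10), TMM-scaled and tested with edgeR 4.0.16 in R 4.3.3 over 17392 genes; SE is the log2 difference over the root of F. The fit was tested on simulated data. DESeq2 1.42.0, limma 3.58.1 (voom and log2(TPM + 1) or + 0.1), other scaling and filters, a replicate block, a fat covariate and omission of each library were alternatives; DESeq2 without each library was added after seeing the data. The 10 genes and the lists were chosen with earlier results of these data known. Named list genes are the 3 called of lowest p per list plus Nfe2l2, Keap1, Bach1, Slc40a1, Tfrc, Cd163, Hmox2 and Blvra; ratios, Steap3 and Cp were chosen after values were seen. Replicates in a group differed beyond sampling noise (mean chi-square per gene at least 12.34).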

Additional observations from a re-analysis of the deposited data

How the results depend on the processing

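All 10 genes kept their direction in the alternatives run, except 2, neither called in any. Gclc ranged from -0.3071 to 0.0351 (without control replicate 3; 0.0321 by DESeq2) with 1 library left out, and Gclm from -0.0298 (without control replicate 2; -0.0333 by DESeq2) to 0.0511, with -0.0048 without knockout replicate 2 (-0.0112 by DESeq2). Keap1 was 0.0101 with library size alone. Of the 10 genes, 5 were called by DESeq2, 1 by limma-voom, 1 and 1 by limma on log2(TPM + 1) and log2(TPM + 0.1), and 0 with the fat covariate. Over all genes these settings called 3443, 1073, 712, 942 and 290, against 1798 (1131 higher, 667 lower), and over the 5 lists 20, 4, 1, 3 and 0, against 10. With library size alone 76.8% of all calls were higher, against 62.9%. With 1 library left out, edgeR called from 0 to 5079 genes in all, from 0 to 7 of the 10 and from 0 to 36 of the lists; it called 0 genes without control replicate 1 or 3, where 4056 had a raw p under 0.05 both times and DESeq2 called 2336 and 2222. DESeq2 then called from 2005 to 5684, from 2 to 7 (4 without control replicate 1) and from 10 to 42 (17 and 19 without control replicates 1 and 2, with 3074 genes in all without the latter). These fits have fewer libraries and so fewer degrees of freedom. The replicate block called 1995 genes and 3 of the 10, with Hmox1 at an adjusted p of 0.0496. Same-numbered libraries share only a number: their deviations correlated at -0.192, 0.27 and 0.035. Why the calls change with the setting was not tested. Counts limit precision for genes near 1 CPM, such as Spic.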

Other observations

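Some genes of the related lists had large differences without passing the test, and were picked after their values were seen. Lcn2, which binds bacterial iron carriers, had the largest log2 difference of the iron list, 2.37 (SE 0.94, edgeR adjusted p = 0.146). Slc7a11, the cystine importer that feeds glutathione synthesis, had 1.81, 1.33 and 0.970 CPM in controls and 6.23, 6.99 and 1.67 CPM in knockouts (adjusted p = 0.0732), so that knockout replicate 3 lay among the controls. Osgin1, an NRF2 target, had 2.20 ± 0.202 CPM in controls and 3.94 ± 0.917 CPM in knockouts (SD, n = 3), with no overlap (edgeR adjusted p = 0.0512). Spic, the transcription factor of macrophages that recycle red cell iron, had 0.662, 0.634 and 0.437 CPM and then 1.33, 1.48 and 0.909 CPM, also with no overlap (adjusted p = 0.0502).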
